A study of Mus musculus with 12 samples.

Results

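Cells release extracellular vesicles (EVs) by budding from the plasma membrane and by secreting the small vesicles formed inside multivesicular endosomes. Tetraspanins, proteins that cross the membrane repeatedly, gather cargo on both kinds of vesicle. The ESCRT machinery and its partners, among them the syntenin and Alix proteins, pinch vesicles off into the endosome, and Rab GTPases bring the endosome to the cell surface. Transcripts of 10 genes of this system were examined in macrophages that had themselves been given EVs. The genes were chosen by name: the tetraspanins Cd9, Cd63, Cd81, Cd82 and Tspan4, the ESCRT-I subunit Tsg101, Pdcd6ip (which encodes Alix), Sdcbp (which encodes syntenin-1), Rab27a and Anxa2. They are 10 of the 35865 genes to which the listed transcripts were matched.

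The RNA was polyadenylated RNA from the mouse macrophage line RAW264.7. All cells received EVs shed by the mouse endothelial line MS-1 for 48 h, at a dose of 3 µg EV protein per ml, and no group without EVs was analysed here. The EVs had been electroporated with 1 of 4 mimics. Those loaded with miR-142-5p are called miR-142-5p-EVs, and those of the miR-183-5p and miR-222-3p groups are named likewise. The mimic in ctrl-EVs is, by the study's methods, cel-miR-67 of the worm. Each of the 4 groups had 3 libraries, numbered 1 to 3 in the titles; all come from 1 cell line, and the study's methods say that experiments were run at least 3 times, without saying whether these libraries are separate cultures, so that p-values measure the spread between these libraries. Libraries held 16294611 to 22974853 estimated counts. All 12 macrophage markers examined were at or above 1 TPM (a share of all transcript molecules, scaled to a fixed sum per library) on average, with a summed level of 1630 to 2300 TPM per library. Of 14 endothelial markers 4 reached 1 TPM (Egfl7, Eng, Pecam1 and Vwf), the sum was 18.6 to 37.9 TPM with overlapping ranges in all 4 groups, and Cldn5 was listed at 0 in every library.

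The miRNAs on which the mimics were modelled are shown because target sites are commonly sought through pairing with the seed, here bases 2 to 8 of the mature miRNA and given in capitals (5′ to 3′, RefSeq, GRCm38.p6). They are the RefSeq forms. By the study's supplement, the miR-222-3p mimic ends sooner at its 3′ end. They have 3 different seeds.
miR-142-5p: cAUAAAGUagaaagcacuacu
miR-183-5p: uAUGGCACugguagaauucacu
miR-222-3p: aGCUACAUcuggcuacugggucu
They are encoded at chr11:87756867-87756887 on the plus strand, chr6:30169711-30169732 on the minus strand and chrX:19146901-19146923 on the minus strand. The sites searched in 3′ UTRs, on the transcript strand, were ACTTTAT for miR-142-5p, GTGCCAT for miR-183-5p and ATGTAGC for miR-222-3p.

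Of the 10 genes, Pdcd6ip and Sdcbp held such sites, and the other 8 held none in the 3′ UTR of any transcript examined. Shorter seed matches and other kinds of site were not searched. The windows below give the site in capitals (GRCm38).
Pdcd6ip, miR-142-5p site: tttgaaattagcatACTTTATa
Sdcbp, miR-142-5p site: aaaatggcaatgacACTTTATg
Pdcd6ip, miR-183-5p site: gggtctcaggctagGTGCCATt
Sdcbp, miR-183-5p site: cttgttgggtggggGTGCCATt
The miR-142-5p sites, at chr9:113654633-113654639 (minus strand) and chr4:6395577-6395583 (plus strand), lie in the leading transcript of each gene, the one with the highest TPM. The miR-183-5p sites, at chr9:113652964-113652970 (minus strand) and chr4:6408171-6408177 (plus strand), lie only in the minor transcripts Pdcd6ip-201, whose 3′ UTR of 3189 bases is longer than the 461 bases of the leading Pdcd6ip-202, and Sdcbp-204. No site for miR-222-3p was found. Among 13078 genes with a 3′ UTR in their leading transcript, 13.6%, 8.8% and 9.3% held the site for miR-142-5p, for miR-183-5p and for miR-222-3p respectively, against 2, 0 and 0 of the 10. A match of these letters describes the sequence and shows no binding.

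The 10 transcripts spanned a wide range of levels in RAW264.7 cells. In such bulk RNA, less of a transcript in every cell and fewer cells with it cannot be told apart. Mean TPM over the 12 libraries, a scale that corrects for transcript length, was 315 ± 25.3 (SD, n = 12) for Sdcbp, 298 ± 123 for Anxa2, 120 ± 10.1 for Cd9, 93.5 ± 7.21 for Cd81, 73.8 ± 19.0 for Tspan4, 71.9 ± 10.9 for Pdcd6ip, 64.5 ± 26.3 for Cd82, 57.7 ± 10.1 for Tsg101, 8.02 ± 1.26 for Rab27a and 0.22 ± 0.206 for Cd63. Syntenin-1 and annexin A2 transcripts were thus the most abundant, and they did not separate: Sdcbp exceeded Anxa2 in 7 of 12 libraries. Anxa2 exceeded Cd9, and Cd9 exceeded Cd81, in all 12. Below Cd81 the neighbours Tspan4, Pdcd6ip, Cd82 and Tsg101 changed places between libraries, each exceeding the next in 7 or 8 of 12, and Cd81 exceeded Tspan4 in 9. Tsg101 exceeded Rab27a, and Rab27a exceeded Cd63, in all 12.

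**Figure D1:**
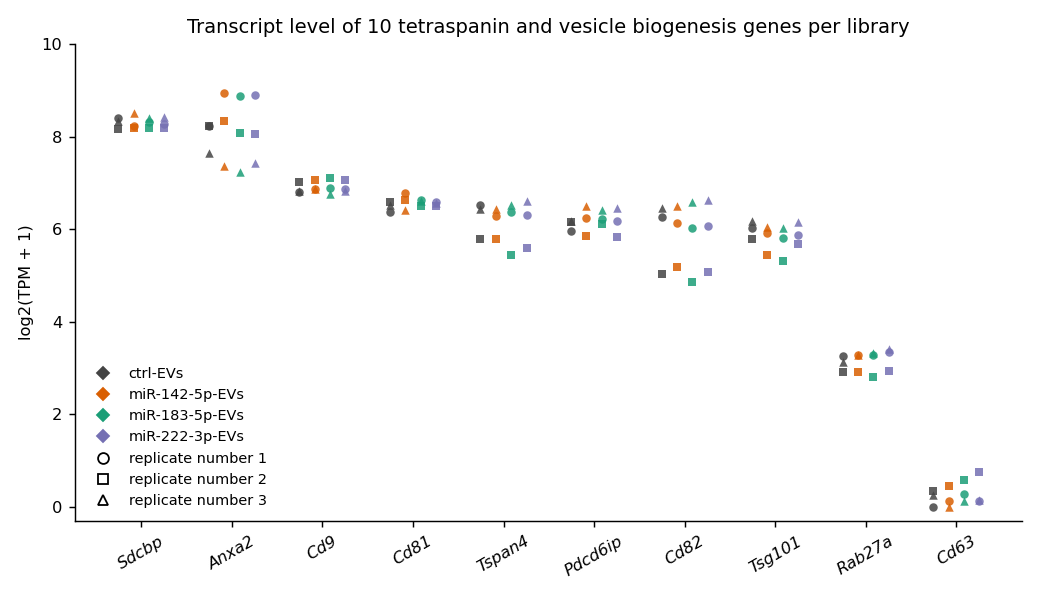
Level of each of the 10 genes as log2(TPM + 1), with 1 point per library, colour for the group and shape for the replicate number. Sdcbp and Anxa2 are highest, Cd63 lies near 0 in every library, and in Cd82 and Tspan4 the 4 points of number 2 lie below the other 8.

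Cd63 (chromosome 10, 128900989 to 128912822, plus strand), a tetraspanin of late endosomes widely used as an EV marker, was barely detected. Its estimated counts in libraries 1, 2 and 3 were 0, 3.2 and 2.0 for ctrl-EVs, and its TPM was 0, 0.27 and 0.198. The TPM values were 0.101, 0.684 and 0.111 in miR-222-3p-EV libraries, 0.211, 0.495 and 0.0995 where the mimic was miR-183-5p, and 0.0982, 0.368 and 0 in miR-142-5p-EV libraries. No library reached 1 TPM and the highest held 9.32 estimated counts, so that Cd63 failed the filter of at least 10 counts in at least 3 libraries and was not tested. Of 12 libraries, 5 lay under 3 counts, the smallest signal taken as detectable, which corresponds to 0.131 to 0.184 CPM. All 6 annotated Cd63 transcripts are listed in the files, and its near-identical pseudogene Cd63-ps (98.81% identity over 505 bases) was listed at 0 counts in every library. Of its neighbours on chromosome 10, the nearest on either side, Gdf11 and Rdh5, were also low, at 0.0581 and 2.58 TPM on average, while Bloc1s1, a subunit of a lysosome-positioning complex, averaged 82.4 TPM and Sarnp, an mRNA export factor, averaged 166. The reads over the locus were not analysed here, so that a low level cannot be told apart from reads that were not assigned to its transcripts. At this depth no difference in Cd63 between groups could be detected.

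The other 9 genes all passed the filter, as did 13906 genes of the series. To ask whether the miRNA cargo altered the recipient cells' own vesicle genes, the 3 miR-EV groups were each set against ctrl-EVs in DESeq2. The test was a two-sided Wald test with Benjamini-Hochberg adjustment, and genes were called at an adjusted p under 0.05. DESeq2 adjusts over those of the 13906 genes that pass its own filter on the mean count. A gene below that filter counts as not called. None of the 9 was called: 0 for miR-142-5p-EVs, where 0.00719% of all genes were called, 0 for miR-183-5p-EVs, where 0% were, and 0 for miR-222-3p-EVs, where 0% were. The pooled comparison of the 9 miR-EV libraries with the 3 ctrl-EV libraries called 0 of the 9 (0% of all genes), and the likelihood ratio test for any difference among the 4 groups called 0 (0.00719% of all genes). Before adjustment, p was under 0.05 for 1 of the 9 genes where the mimic was miR-183-5p, Tsg101 (0.992% of all tested genes), for 0 where it was miR-142-5p (0.525%), for 0 where it was miR-222-3p (0.726%) and for 0 in the pooled comparison (1.66%). All of them use the same 3 ctrl-EV libraries and are not independent.

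Libraries with the same number deviated together, and the fits were repeated with the number as a block. Again 0 of the 9 genes were called for miR-222-3p-EVs (0.0647% of all genes), miR-183-5p-EVs (0.41%), miR-142-5p-EVs (0.0575%), all miR-EVs together (1.6%) and any difference among the groups (0.0863%). For miR-222-3p-EVs Rab27a fell below DESeq2's filter and had no adjusted p. At an unadjusted p under 0.05 the blocked fits had 1 of the 9 for miR-142-5p-EVs (5.86% of all genes), 1 for miR-183-5p-EVs (10.1%), 0 for miR-222-3p-EVs (6.53%) and 1 for all miR-EVs (13.6%). edgeR's quasi-likelihood test called 0 of the 9 in each of these comparisons with and without the block. Over the 9 genes the median log2 fold change of all miR-EVs against ctrl-EVs was 0.021 without the block, against 0.013 over all tested genes, with 5 of the 9 above 0 and 4 below, and with the block it was 0.004, against 0.001. The 95% confidence intervals of the fold changes reached from 0.483-fold to 2.46-fold without the block and from 0.706-fold to 1.36-fold with it. For 0 of the 9 genes were all ctrl-EV libraries above or below all miR-EV libraries, beside 0.302% of all tested genes. Of the single groups, miR-183-5p-EVs did not overlap with ctrl-EVs in 1 of the 9 genes, Tsg101 (3.2% of all tested genes), miR-142-5p-EVs in 0 (2.7%) and miR-222-3p-EVs in 0 (2.69%).

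**Figure D2:**
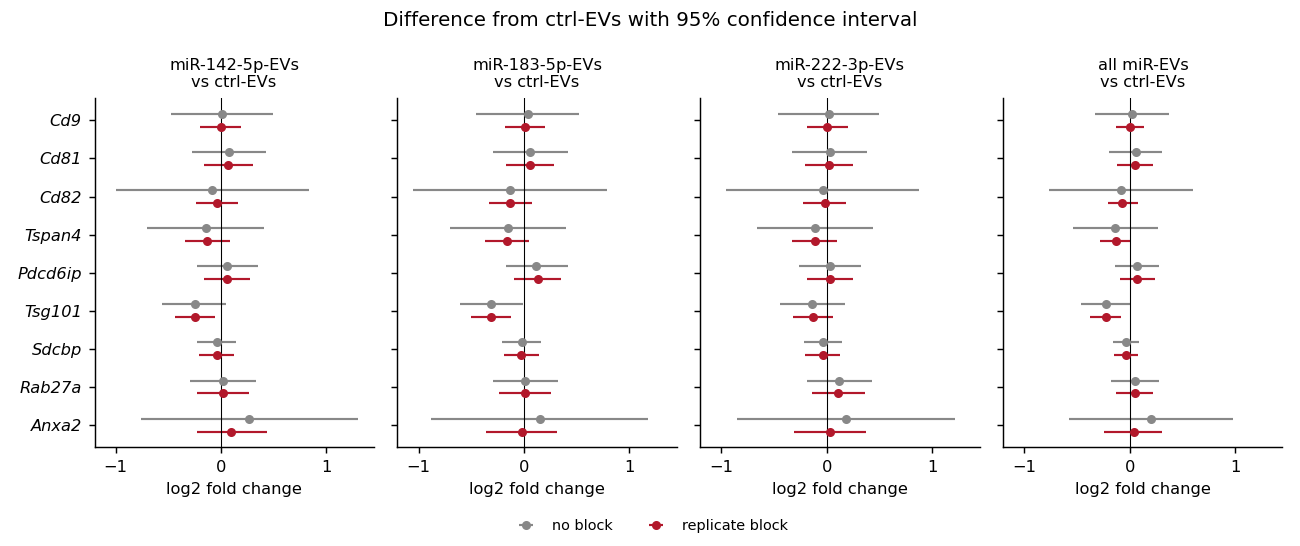
Log2 fold change against ctrl-EVs of the 9 tested genes in each of 4 comparisons, with 95% confidence intervals, without a block (grey) and with the replicate number as a block (red). Intervals are widest for Cd82 and Anxa2 and narrow with the block, and Tsg101 is the one gene whose interval with the block lies below 0 in the miR-142-5p-EV, miR-183-5p-EV and pooled comparisons.

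Tsg101 (chromosome 7, 46888949 to 46919969, minus strand) encodes the ESCRT-I subunit that binds ubiquitinated cargo. Its normalized counts, estimated counts divided by the size factor and the length offset, were 1087, 985.3 and 1226 in ctrl-EV libraries 1, 2 and 3. They were 979.9, 959.5 and 1061 in miR-222-3p-EV libraries, 914.9, 765.6 and 977.4 where the mimic was miR-183-5p, and 968.6, 801.0 and 996.1 in miR-142-5p-EV libraries. All 3 miR-183-5p-EV libraries lay below the lowest ctrl-EV library, whereas the miR-142-5p-EV and miR-222-3p-EV libraries overlapped with ctrl-EVs. Each of the 9 miR-EV libraries lay below the ctrl-EV library of its own number, by 0.04 on the log2 scale in miR-222-3p-EV library 2 up to 0.36 in miR-183-5p-EV library 2. In 3.85% of all tested genes all 9 lay below in this way.

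The log2 fold change of Tsg101 in all miR-EVs was −0.23 ± 0.118 (SE), a fold of 0.852, with a DESeq2 p of 0.0501 and an adjusted p of 1.0. With the block the value was −0.23 ± 0.0765 (95% interval −0.38 to −0.08) and the adjusted p 0.0743, and edgeR with the block gave an adjusted p of 0.206. It therefore missed the threshold in both tools. With 1 library left out of the blocked DESeq2 fit at a time, the adjusted p ranged from 0.0205 to 0.203 and passed in 1 of 12 fits, that without miR-222-3p-EV library 2. For the single groups the blocked log2 fold changes were −0.25 ± 0.0974 for miR-142-5p-EVs (adjusted p 0.659), −0.31 ± 0.0972 for miR-183-5p-EVs (adjusted p 0.105) and −0.13 ± 0.0972 for miR-222-3p-EVs (adjusted p 0.795). Its near-identical pseudogene Tsg101-ps was listed at 0 counts. The intervals of the 3 miR-EV groups overlapped, and a difference between them was not tested. The blocked likelihood ratio test for any difference among the 4 groups, ctrl-EVs included, gave Tsg101 an adjusted p of 0.465 in DESeq2.

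Pdcd6ip (chr9:113651744-113708259, minus strand), whose product Alix bridges ESCRT to syntenin, holds the miR-142-5p site shown above. It had 2682, 3303 and 3198 normalized counts in ctrl-EV libraries, and the miR-142-5p-EV libraries had 3190, 2780 and 3588. The miR-183-5p-EV libraries had 3164, 3497 and 3347, and the miR-222-3p-EV libraries 3151, 2788 and 3421. The ranges of the 4 groups overlapped, those of miR-183-5p-EVs and ctrl-EVs only in part. The blocked log2 fold change with miR-183-5p-EVs was 0.13 ± 0.112 (DESeq2 adjusted p 0.687). The log2 fold change with miR-142-5p-EVs was 0.06 ± 0.112 in the blocked fit (95% interval −0.16 to 0.28, DESeq2 adjusted p 0.996). Its long transcript Pdcd6ip-201, with the miR-183-5p site, stood at 15.4, 13.7 and 16.4 TPM with ctrl-EVs, and in miR-183-5p-EV libraries at 16.1, 11.3 and 18.6 TPM, again with overlap.

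Sdcbp (chr4:6365650-6408423, plus strand), the adaptor that links syndecans to Alix, was the steadiest of the 9 genes. Normalized counts were 8065, 7369 and 7906 in ctrl-EV libraries, and the miR-142-5p-EV libraries had 6989, 7739 and 7945. The miR-183-5p-EV libraries had 7497, 8104 and 7354, and the miR-222-3p-EV libraries 7433, 7922 and 7353. No group stood apart. The log2 fold change with miR-142-5p-EVs, for which its leading transcript has a site, was −0.04 ± 0.0859 in the blocked fit (95% interval −0.21 to 0.12, DESeq2 adjusted p 0.996), and that of all miR-EVs was −0.04 ± 0.0585. Sdcbp overlaps Nsmaf on the opposite strand over 12217 bases. The library kit was a stranded one, and whether Salmon was set to use the strand is not stated.

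Among the tetraspanins, Cd9 (chr6:125460266-125494791) and Cd81 (chr7:143052739-143067934), which partner with integrins and immunoglobulin-type receptors, had 1453 to 2400 and 1110 to 1590 normalized counts over the 12 libraries. Their blocked log2 fold changes in all miR-EVs were 0.00 ± 0.0685 and 0.05 ± 0.0861 (DESeq2 adjusted p 0.989 and 0.821). Cd82 (chr2:93419111-93463140), known as a suppressor of metastasis, gave −0.07 ± 0.0753 (adjusted p 0.711). Tspan4 (chr7:141475240-141493427), a tetraspanin of migrasomes, the vesicles left behind by migrating cells, was lower than the same-numbered ctrl-EV library in 8 of 9 miR-EV libraries, and 10.0% of all tested genes were lower in 8 or 9. Its log2 fold change was −0.13 ± 0.0749 and was not called (adjusted p 0.36). The Tspan4 gene overlaps Chid1 on the opposite strand over 292 bases. A search of both strands matched 286 bases of the Tspan4 transcript to a Chid1 transcript at 100% identity. Chid1 was itself expressed, with 738.6 to 1508 estimated counts per library. As for Sdcbp, whether Salmon was set to use the strand is not stated. Cd9 resembles the pseudogene Cd9-ps (91.13% identity over 665 bases), which was listed at 0 counts.

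Rab27a (chr9:73044854-73097629, plus strand), the GTPase that docks multivesicular endosomes at the plasma membrane, was the least abundant of the tested genes. Its normalized counts were 343.3, 281.6 and 323.0 for ctrl-EVs, and the miR-222-3p-EV libraries had 371.8, 303.6 and 350.5. The miR-222-3p-EV library was thus the highest of its number in all 3 numbers, although the groups overlapped. The share of all tested genes with such a pattern was not taken. The miR-142-5p-EV libraries had 344.6, 292.3 and 322.6, and the miR-183-5p-EV libraries 344.2, 284.7 and 327.4. The blocked log2 fold change with miR-222-3p-EVs was 0.11 ± 0.127 (95% interval −0.14 to 0.36, unadjusted p 0.37, no adjusted p given by DESeq2 for a low count), and without the block it was 0.12 ± 0.158 (DESeq2 adjusted p 1.0).

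Anxa2 (chr9:69453620-69491795, plus strand), a calcium-dependent membrane binder that partners with S100a10, varied most among the libraries. It had 5297, 5719 and 3631 normalized counts in ctrl-EV libraries, and the miR-142-5p-EV libraries had 8520, 6412 and 2689. The miR-183-5p-EV libraries had 8208, 5640 and 2424, and the miR-222-3p-EV libraries 8520, 5368 and 2742. In number 1 all 3 miR-EV libraries lay above the ctrl-EV library, by 0.63 to 0.69 on the log2 scale, and in number 3 all 3 lay below it, by 0.41 to 0.58. The blocked log2 fold change of all miR-EVs was 0.04 ± 0.139 (DESeq2 adjusted p 0.933), and its 95% interval, −0.24 to 0.31, is the widest of the 9 genes. Of the 9 genes, 4 had such a pair of numbers with opposite directions (Anxa2, Cd9, Cd81 and Sdcbp), as did 39.9% of all tested genes.

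**Figure D3:**
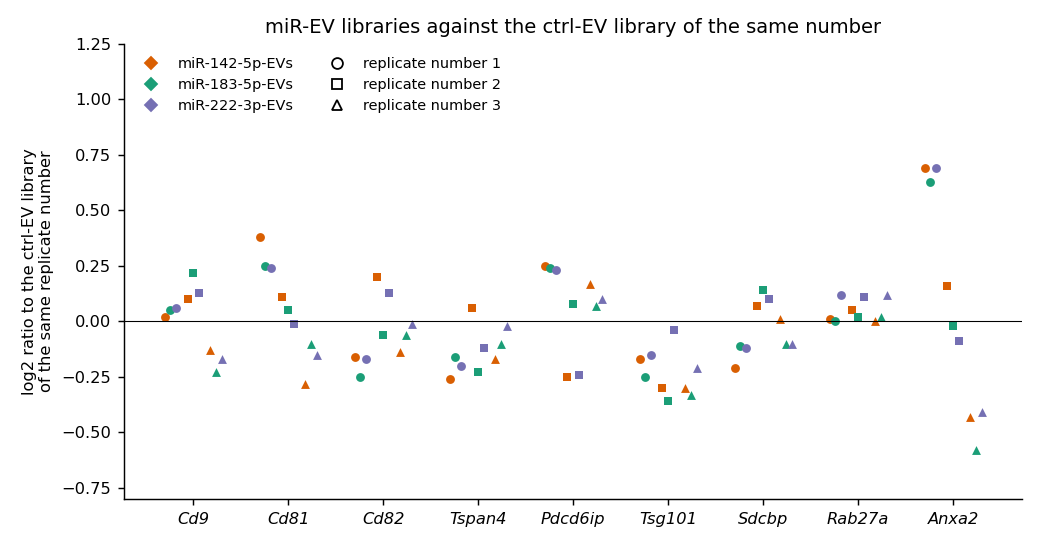
Log2 ratio of each miR-EV library to the same-numbered ctrl-EV library, for the 9 tested genes, with colour for the group and shape for the number. All 9 Tsg101 points lie below 0, while the Anxa2 points lie near 0.67 in number 1 and near −0.47 in number 3.

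Libraries of different replicate numbers differed widely in several of the genes. Whether they differed more by number than by EV cargo was not tested. A likelihood ratio test for any difference among the 3 numbers, with the group in the model, called 6 of the 9 tested genes, beside 69.4% of all tested genes. A share of 6 in 9 is close to that background and sets these genes in no way apart. The median spread between the highest and the lowest number was 0.30 on the log2 scale over the 9, against 0.61 over all tested genes. The other genes were not matched to the 9 in level, so that these medians do not show the 9 to be steadier. What a number stands for is not stated. Number 2 libraries had 4.85% to 5.38% of counts in mitochondrial genes, number 1 libraries 4.44% to 4.59% and number 3 libraries 3.45% to 3.89%, and the part of library quality in the differences between numbers was not tested.

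Anxa2 and Cd82 spanned the widest range. Anxa2 averaged 7636 ± 1570 normalized counts (SD, n = 4) in number 1, 5785 ± 444 in number 2 and 2872 ± 525 in number 3, a 2.64-fold range (DESeq2 likelihood ratio test, adjusted p 3.18e-18). The ordering of the numbers held in each of the 3 miR-EV groups, whereas among ctrl-EV libraries number 2 was the highest. Cd82 averaged 1465 ± 110, 774.2 ± 64.1 and 1864 ± 80.7, a 2.41-fold range (adjusted p 2.42e-41), and the 4 libraries of number 2 lay between 707.5 and 847.3, below the lowest value of any other library, 1357.

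Tspan4 followed the same order as Cd82, with 1032 ± 81.9, 704.8 ± 62.2 and 1067 ± 57.7 (adjusted p 3.41e-10). Cd9 went the other way and was highest in number 2, with 1698 ± 32.7, 2232 ± 139 and 1561 ± 109 (adjusted p 7.5e-09). Across the 12 libraries Pearson's r on the log2 scale was 0.95 between Cd82 and Tspan4 and −0.95 between Cd9 and Cd82. These are descriptions, since the 12 points fall into the 3 numbers. Smaller differences were called for Tsg101 (1.22-fold, adjusted p 0.00713) and Cd81 (1.23-fold, adjusted p 0.0279). With 1 library left out at a time, Anxa2, Cd82, Tspan4 and Cd9 were called in all 12 fits, Tsg101 in 9 and Cd81 in 5. Tsg101 lost its call without library 2 of miR-142-5p-EVs (adjusted p 0.0666) and without libraries 2 and 3 of miR-183-5p-EVs (0.0624 and 0.0545). Cd81 was also not called by edgeR, at an adjusted p of 0.0528. Rab27a (adjusted p 0.0639), Pdcd6ip (adjusted p 0.262) and Sdcbp (adjusted p 0.784) were not called in the main DESeq2 fit. By edgeR (adjusted p 0.0334) and with TMM scaling in DESeq2 (adjusted p 0.0456) Rab27a was called. Without the length offset Pdcd6ip was called (DESeq2 adjusted p 3.01e-07), and Sdcbp was not (0.508).

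**Figure D4:**
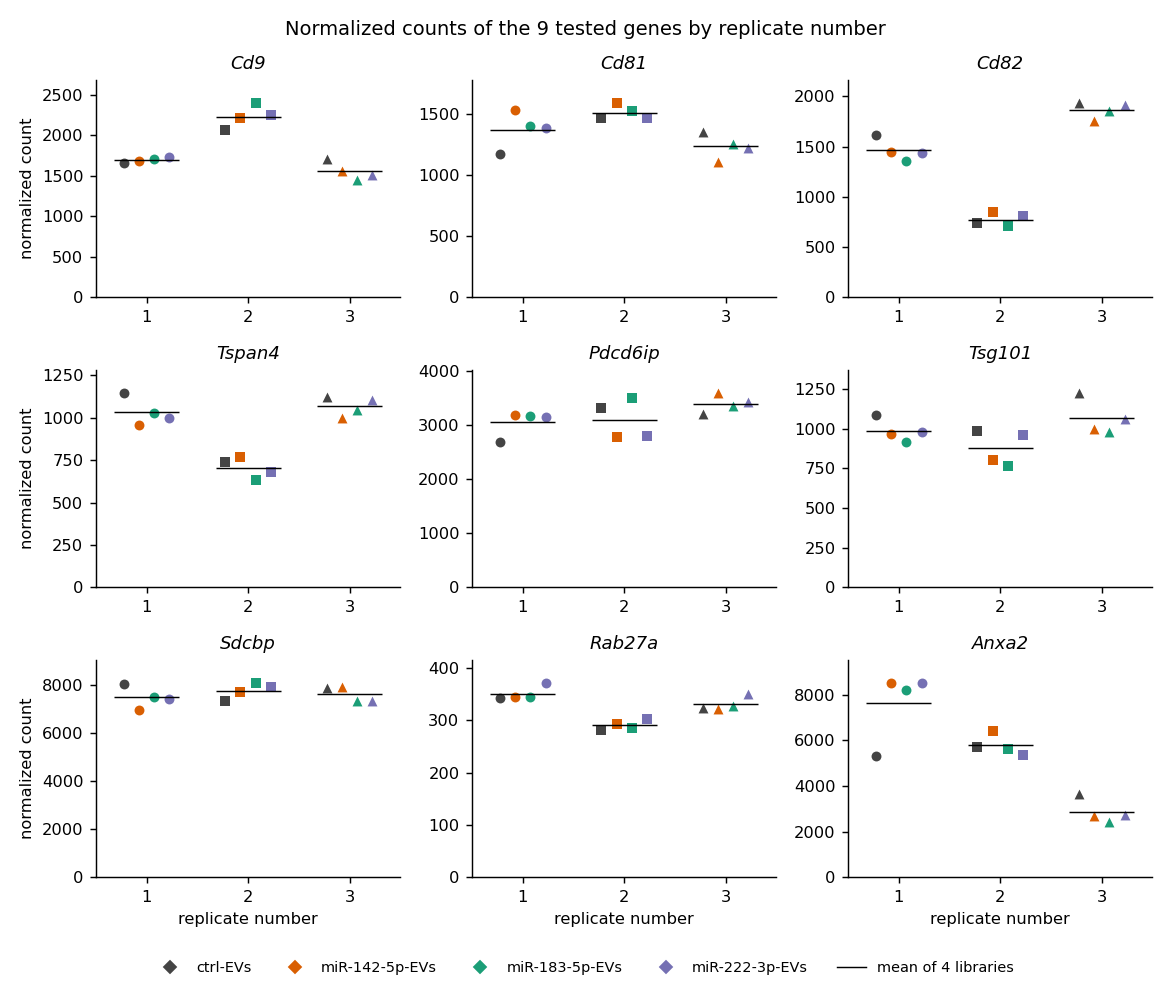
Normalized counts of the 9 tested genes against replicate number, with 1 point per library coloured by group and a line at the mean of the 4 libraries of a number. Cd82 and Tspan4 are lowest and Cd9 highest in number 2, Anxa2 is ordered differently in ctrl-EVs and in the miR-EV groups, and the means of Sdcbp by number lie between 7496 and 7784.

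The gene whose pattern over the 12 libraries was most like that of each member, among 10856 others averaging 50 or more normalized counts, was Slc31a2 for Cd82 (Pearson's r 0.998), Selenbp1 for Anxa2 (0.993), Ube2t for Cd9 (0.992), Nagk for Tspan4 (0.989), Ddx56 for Rab27a (0.964), Carm1 for Cd81 (0.954), Chtf8 for Tsg101 (0.954), Sdf2 for Sdcbp (0.875) and Kctd20 for Pdcd6ip (0.849). The value was lowest for Sdcbp and Pdcd6ip.

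All 9 tested genes had at least 2 transcripts at 1 TPM or more, and the share of a gene's TPM in its leading transcript was compared between all miR-EV and ctrl-EV libraries by a two-sided exact permutation test over 220 arrangements. At an unadjusted p under 0.05 there was 1 of the 9 genes, Tspan4, beside 3.22% of 8206 genes with as many transcripts. After adjustment over these 8206, 0 of the 9 and 0% of all passed. With 220 arrangements p cannot fall low enough for a few genes alone to pass this adjustment. The count of 0 therefore cannot decide whether a share differed. Cd82-201 held 88.8%, 80.7% and 87.9% of Cd82 TPM in ctrl-EV libraries 1, 2 and 3. It held 83.6%, 55.2% and 78.6% in miR-222-3p-EV libraries, 82.0%, 61.2% and 80.2% where the mimic was miR-183-5p, and 76.7%, 61.2% and 78.0% in miR-142-5p-EV libraries. The share lay below the same-numbered ctrl-EV library in 9 of 9 miR-EV libraries, with means of 73.0% ± 10.7 (SD, n = 9) and 85.8% ± 4.44 (n = 3), and the groups overlapped. The exact permutation p was 0.0773 (adjusted 0.991), and within numbers it was 0.0156, the smallest that 64 arrangements allow (adjusted 0.354). Of the 8206 genes, 5.18% had a lower leading share in 9 of 9.

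Tspan4-202 held 66.1% ± 4.11 of Tspan4 TPM in the 9 miR-EV libraries and 72.1% ± 2.84 in the 3 ctrl-EV libraries (exact permutation p 0.0364, adjusted 0.991). Rab27a-201 held 78.1% ± 6.13 and 86.2% ± 7.27 (exact permutation p 0.0955, adjusted 0.991). Both shares were lower than in the same-numbered ctrl-EV library in 8 of 9 miR-EV libraries, and 15.2% of the 8206 genes were lower in 8 or 9. A higher share in 8 or 9 was found for 0 of the 9 genes (3.77% of the 8206). Permuted within numbers, 2 of the 9 genes, Cd82 and Tspan4, had an unadjusted exact p under 0.05, beside 10.7% of the 8206. After adjustment 0 passed (0% of all), and with 64 arrangements a few genes alone could not pass. The single-transcript genes in practice were Cd9, with Cd9-201 at 95.5% to 99.4%, and Anxa2, with Anxa2-201 at 91.4% to 97.9%. The shares of Pdcd6ip-202 and Tsg101-201 were lowest in number 2, at 41.7% and 40.1% on average, against 60.6% and 53.1% in number 1 and 63.2% and 62.1% in number 3.

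**Figure D5:**
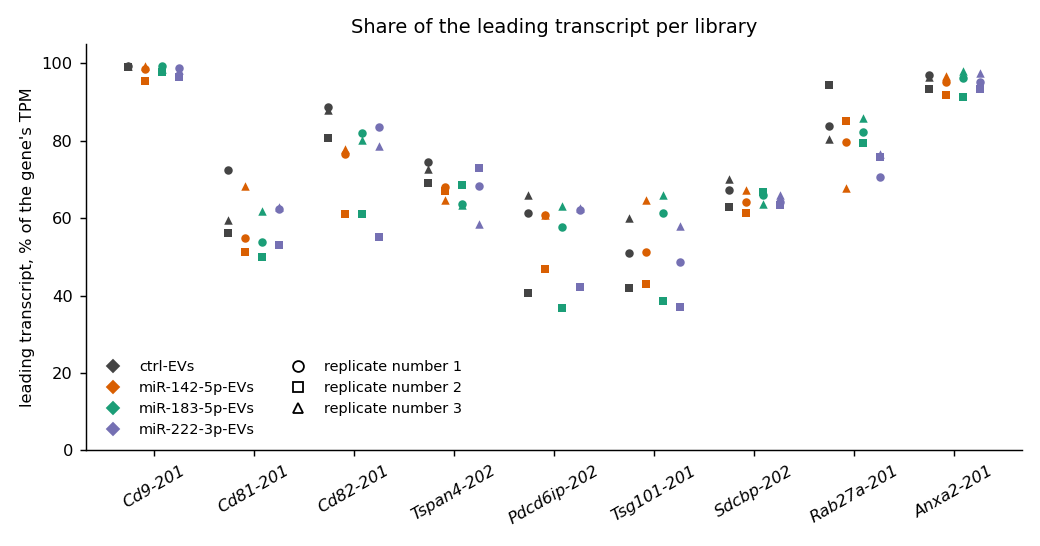
Share of the gene's TPM in its leading transcript, in percent, per library, with colour for the group and shape for the replicate number. The Cd82-201 points of ctrl-EVs lie at 80.7% to 88.8%, above the miR-EV point of the same number each time, and Pdcd6ip-202 and Tsg101-201 split by number 2.

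A wider set of 140 genes was read beside these 10, of which 114 were tested. Of these 114, DESeq2 called 0 in the 3 single comparisons and the pooled one, with or without the block. Of all tested genes it called at most 0.00719% without the block. With the block it called up to 0.41% in single comparisons and 1.6% in the pooled one. edgeR also called 0 of the 114, and its share over all genes is not given here. In the pooled DESeq2 comparison 1 of the 114 had an unadjusted p under 0.05 without the block, beside 1.66% of all tested genes. With the block it was 12, beside 13.6%. The median pooled log2 fold change of the 114 was −0.003 without the block, beside 0.013 over all tested genes. With the block it was −0.026, beside 0.001, and the difference was not tested. By list, 15 of 21 other tetraspanins were tested, 6 of 8 tetraspanin partners, 29 of 30 ESCRT and accessory genes, 10 of 14 syntenin, syndecan and ceramide genes, 25 of 29 Rab and fusion genes, 9 of 11 annexins and 20 of 27 vesicle uptake genes.

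The extremes named for each list are the genes with the highest and the lowest pooled log2 fold change without the block, and the values given for them are those with the block unless stated. The most abundant of the other tetraspanins were Cd53 (250 ± 84.9 TPM, n = 12) and Cd37 (129 ± 17.6 TPM), both of leukocytes. Cd53 had 6118 ± 1830 normalized counts in ctrl-EV libraries and 5419 ± 1610 in miR-EV libraries, below the same-numbered ctrl-EV library in 9 of 9, with a blocked log2 fold change of −0.19 ± 0.0719 that was not called (DESeq2 adjusted p 0.132). Cd37 gave −0.11 ± 0.0833 (adjusted p 0.513). The extremes of the list were Tspan5, at 0.12 ± 0.109 (adjusted p 0.622), and Tspan13, at −0.27 ± 0.105 (adjusted p 0.147). Among the partners, the protease Adam10 (155 ± 40.3 TPM) and Igsf8 (77.2 ± 9.37 TPM) led. Integrin Itga6 was higher in 9 of 9 miR-EV libraries at 0.24 ± 0.113 (adjusted p 0.261), and Adam10, the lowest of the list without the block at −0.12 ± 0.234, gave −0.09 ± 0.0755 with it (adjusted p 0.565). All 9 were above in 3.67% of all tested genes.

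ESCRT genes were led by Chmp2a (117 ± 17.5 TPM), an ESCRT-III subunit, and Vps28 (104 ± 14.4 TPM), which sits with Tsg101 in ESCRT-I. The blocked log2 fold change of Vps28 was −0.12 ± 0.0818 (DESeq2 adjusted p 0.469), and it was lower in 6 of 9 miR-EV libraries, against 9 of 9 for Tsg101. The extremes were Stam (0.16 ± 0.116, adjusted p 0.489) and Chmp6 (−0.28 ± 0.16, adjusted p 0.369). In the syntenin, syndecan and ceramide list, Arf6 (123 ± 8.4 TPM) and the syndecan Sdc4 (88.8 ± 17 TPM) led, with Sgms1 at 0.18 ± 0.124 (adjusted p 0.468) and Flot1 at −0.12 ± 0.122 (adjusted p 0.67) as extremes.

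Among Rab and fusion genes, Rab11a (235 ± 16.8 TPM), of recycling endosomes, and Rab7 (204 ± 50.9 TPM), of late endosomes, were far above Rab27a. Unc13d had the highest unblocked pooled log2 fold change, 0.28 ± 0.496 (DESeq2 adjusted p 1.0), and the SNARE Vamp8 the lowest, −0.21 ± 0.23, or −0.20 ± 0.088 with the block (adjusted p 0.21). Of the annexins, Anxa5 (306 ± 45.0 TPM) had a mean level near that of Anxa2 and was lower in 9 of 9 miR-EV libraries by little, at −0.09 ± 0.0472 (blocked adjusted p 0.299). S100a10, the Anxa2 partner, had 123 ± 30.6 TPM and a blocked value of −0.06 ± 0.11 (adjusted p 0.847), with Anxa7 (0.15 ± 0.0864, adjusted p 0.39) and Anxa6 (−0.10 ± 0.0936, adjusted p 0.622) as extremes. The uptake genes Lgals3 (226 ± 43.2 TPM) and Clta (198 ± 29.3 TPM) led their list, whose extremes were Stab1 (0.25 ± 0.168, adjusted p 0.463) and Npc1 (−0.23 ± 0.0928, adjusted p 0.165). Between replicate numbers 78 of the 114 genes were called, a share close to the 69.4% of all genes.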

How the data were processed

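The 10 genes, the wider lists and the tests were chosen with earlier results of these data known. Polyadenylated RNA of 12 libraries, made with a stranded kit, was sequenced. The authors assigned reads to Ensembl mouse transcripts with Salmon. The labels name GRCh38, a human build, although the listed identifiers are mouse transcripts. The deposited files give an estimated count and a TPM value per transcript; the authors did not normalize the estimated counts between libraries, and TPM is scaled within each library. Of 118783 listed transcripts, 116622 (98.2%) were matched to GENCODE vM21 (GRCm38), source of all gene positions. Gene sums of the estimated counts were rounded, and mean transcript length entered DESeq2 1.42.0 (R 4.3.3) as an offset, as tximport passes it. The 13906 genes that reached 10 counts in 3 or more libraries were tested in 1 fit of all 4 groups without a block. The scripts were tested on simulated data.

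The replicate numbers in the titles were taken to pair libraries: the correlation of deviations from group means was 0.409 to 0.797 (mean 0.608) over 18 same-numbered pairs and −0.286 on average over 36 others. Deviations sum to 0 within a group, so that the negative mean largely follows from the positive one and adds no separate evidence. Intervals are 95% Wald intervals. Floors of 3 counts cover counting error only, since reads without molecular identifiers are not independent molecules. Leading transcript shares were compared by exact permutation, with p-values adjusted over all genes that had at least 2 transcripts at 1 TPM (chosen after seeing the data). 3′ UTRs were scanned for the complement of seed bases 2 to 8, and near-identical copies were sought with BLAST 2.17.0 (at least 90% identity over 200 bases). Alternatives were the replicate block, edgeR 4.0.16, TMM scaling, no length offset, no count filter, fits of 2 groups only, and leaving out each library. Genes named besides the 10 are, per list, the 2 with the highest TPM and the 2 with the most extreme pooled log2 fold change among those averaging 50 or more normalized counts, and for each member the gene most like it over the 12 libraries. The delivered miRNAs were not measured in these libraries.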

Additional observations from a re-analysis of the deposited data

Results flagged for a closer look

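Dixon's gap ratio was examined in 36 sets of libraries, not all of which were the 4 libraries of 1 replicate number. In 4 of the 36 a library stood apart from the other 3 of its replicate number. The threshold is one that about 1 in 20 sets of normal, independent values pass. The share over all tested genes was not taken, so that 4 of 36 cannot be called particular to these genes. The ctrl-EV library was far from the 3 miR-EV libraries in number 1, below them, for Pdcd6ip (gap ratio 0.924) and Anxa2 (0.903). The miR-222-3p-EV library was the high one for Rab27a in number 1 (0.955) and in number 3 (0.83).

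In some genes all miR-EV libraries of 1 number lay above their ctrl-EV library and all of another number below it. The difference between such numbers in the mean log2 ratio to ctrl-EVs was 1.14 for Anxa2 between numbers 1 and 3 (0.67 and −0.47) and 0.47 for Cd81 between the same numbers. For Cd9 it was 0.22 between numbers 1 and 3 and 0.33 between numbers 2 and 3, and for Sdcbp it was 0.25 between numbers 2 and 1. These differences were not tested. Each number has 1 ctrl-EV library, which all 3 ratios of that number share, and 39.9% of all tested genes show such a pattern.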

How the results depend on the processing

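The count of members called was 0 in every comparison of groups under each alternative to which all 12 libraries contributed, the replicate block included, and with any 1 library left out of the fit without a block. With the replicate block, 1 library left out in turn (chosen after seeing the data) moved 8 counts from 0. Without miR-222-3p-EV library 2, 1 member, Tsg101, was called in the pooled comparison. Of the wider lists, without ctrl-EV library 1 the count was 1 (Myo5a, higher) for miR-222-3p-EVs, miR-183-5p-EVs and all miR-EVs, and without ctrl-EV library 2 it was 2 for all miR-EVs (Chmp1a and Tspan13, lower). Without ctrl-EV library 3 it was 1 for miR-222-3p-EVs and miR-183-5p-EVs (Npc1, lower) and 3 for all miR-EVs (Npc1, with Ifitm3 and Mfge8 higher). Myo5a, Chmp1a, Ifitm3 and Mfge8 were named after their values were seen. The ctrl-EV group has 2 libraries left in these fits. The cause was not tested. The count of members called among replicate numbers, 6, was 6 or 7 in the other fits of all 12 libraries and 4 to 6 with 1 left out. Cd81, for one, was lost without any 1 of 7 libraries: ctrl-EV 2, miR-142-5p-EV 2 and 3, miR-183-5p-EV 2 and 3, and miR-222-3p-EV 2 and 3 (adjusted p 0.0605 to 0.163).

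Differences near 0 changed sign, none of them called. With the replicate block the log2 fold change of Cd9 with miR-142-5p-EVs was −0.0033 and that of Anxa2 with miR-183-5p-EVs −0.02. edgeR with the block gave −0.01, −0.00051 and −0.01 for Cd9 in the comparisons of miR-142-5p-EVs, of miR-183-5p-EVs and of miR-222-3p-EVs, −0.01 in the pooled one, and −0.03 for Anxa2 with miR-183-5p-EVs. Without the length offset Cd81 gave −0.03 with miR-183-5p-EVs and −0.0044 pooled, and with the block added (chosen after seeing the data) −0.03 and −0.01, and Anxa2 with miR-183-5p-EVs −0.01. As a share of estimated counts, the miR-EV minus ctrl-EV difference in the leading transcript was 0.473 points for Pdcd6ip and −0.0578 points for Tsg101. Cd63 gave no value in any fit with the count filter.

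With 1 library left out and no block, the values that crossed 0 ranged as follows in the miR-142-5p-EV, miR-183-5p-EV, miR-222-3p-EV and pooled comparisons. Cd9 ranged from −0.15 to 0.11, −0.19 to 0.18, −0.16 to 0.14 and −0.04 to 0.12. Cd81 ranged from −0.01 to 0.23, −0.02 to 0.14, −0.06 to 0.10 and −0.03 to 0.13, and Cd82 from −0.40 to 0.20, −0.47 to 0.17, −0.36 to 0.23 and −0.40 to 0.19. Tspan4 ranged from −0.33 to 0.05 with miR-183-5p-EVs and −0.29 to 0.07 with miR-222-3p-EVs. Pdcd6ip ranged from −0.04 to 0.15 with miR-142-5p-EVs, −0.06 to 0.10 with miR-222-3p-EVs and −0.02 to 0.13 pooled. Sdcbp ranged from −0.08 to 0.01 with miR-142-5p-EVs and −0.07 to 0.0025 with miR-183-5p-EVs. Rab27a ranged from −0.06 to 0.08 and −0.06 to 0.09 in these comparisons and −0.02 to 0.11 pooled. Anxa2 ranged from −0.10 to 0.61, −0.28 to 0.50 and −0.27 to 0.51 in the 3 single comparisons. Leading transcript differences ranged from −8.86 to 3.81 points for Pdcd6ip, −3.51 to 5.57 for Tsg101 and −1.63 to 0.177 for Anxa2. Tsg101 stayed below 0 in all comparisons and alternatives run. With 3 ctrl-EV libraries, the unblocked intervals of Anxa2, Cd82 and Tspan4 extend beyond 1.5-fold, up or down, in the 3 single comparisons. That of Tsg101 with miR-183-5p-EVs does so too, down to 0.654-fold. The pooled intervals of Anxa2 (0.671-fold to 1.97-fold) and Cd82 (0.585-fold to 1.52-fold) are as wide.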
